A study of Mus musculus with 8 samples.

Results

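The genes described here are 32 mouse genes of lysine acylation outside the class I histone deacetylases: 14 erasers, which take acyl groups off lysine, 10 writers, which put them on, and 8 readers, which bind acylated lysine. They were chosen by gene symbol from a list of names, and this choice was made with earlier results of these data known. All 32 were found among the 55487 genes of the count table, and all 32 were among the 13312 genes with enough reads to be tested. Each symbol matched 1 row.

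The data were bulk RNA sequencing of whole liver from male mice of the inbred strain C57Bl/6J, about 10 weeks old. The control group held 4 libraries from mice gavaged with water, and the sorbate group held 4 libraries from mice gavaged with 17 mg of potassium sorbate, a food preservative whose acid, sorbic acid, is a short-chain dienoic acid. Livers of both groups were taken 4 hours after the gavage. The title of the series ties sorbate to a lysine mark, sorbylation, and to class I deacetylases, and the comparison asked here is whether transcripts of the other enzymes and readers of such marks differed between the groups.

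Lysine side chains of histones and metabolic enzymes carry acetyl groups and longer acyl groups such as crotonyl and succinyl. Writers take the acyl group from acyl-CoA, zinc-dependent erasers (HDACs) release it by hydrolysis, and sirtuins remove it in a reaction that consumes NAD. Bromodomains bind mainly acetyl-lysine, while YEATS domains and double PHD fingers also hold longer, unsaturated chains. In liver these proteins link fuel supply to transcription and to the activity of mitochondrial enzymes.

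Libraries held 15773932 to 25844731 counts. Levels are given as CPM, read counts set to a common library size after TMM scaling, and differences as log2 fold changes of sorbate against control. Of all tested genes, 12.4% were called at an adjusted p under 0.05 (edgeR's quasi-likelihood test, Benjamini-Hochberg method), 6.14% higher and 6.3% lower. Control 2 stood apart from the other controls. It scored 15.4 on the first principal component, which held 53.6% of the variance, where the 4 sorbate libraries scored 21.9 to 37.8 and controls 1, 3 and 4 scored −49.1 to −42.1, and values without it are given beside the results that it moves most. Control 2 was thus singled out by its values. In genes where it lies near the sorbate libraries, leaving it out widens the difference by construction. A call gained in this way is no separate support for a difference. Hepatocyte markers summed to at least 76312 CPM in every library. The 10 Kupffer cell and macrophage markers, of which 5 were lower and 0 higher at the threshold, summed to 252 to 600.2 CPM in the controls, with 252 in control 2, and to 181 to 352 CPM with sorbate. Both tested neutrophil markers and 5 of 6 tested red cell markers were also lower. The 10 neutrophil markers summed to 2.29 to 27.1 in the controls, with 2.29 in control 2, and to 1.10 to 3.02 CPM with sorbate. Red cell markers summed to 332 to 1386 in the controls, with 332 in control 2, and to 252 to 373 CPM with sorbate. The remaining tested red cell marker, Alas2, was not called and is part of these sums. Alas2 stood at 120 ± 14.9 CPM in the controls and at 155 ± 17.2 CPM with sorbate (mean and SD). No marker of these lists was at 0 in all libraries. The part of these cells in the values below was not tested, and in whole tissue fewer cells of a type and less RNA per cell cannot be told apart.

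Of the 32 genes 1 was called higher, the acetyltransferase gene Kat2a, and 0 were called lower, where 12.4% of all tested genes were called. Their median log2 fold change was 0.05, beside −0.02 for all tested genes, and single values ran from −0.77 (Hdac9) to 0.57 (Hdac11). By role, 0 of 14 erasers, 1 of 10 writers and 0 of 8 readers were called, with medians of 0.08, 0.05 and −0.00. At an unadjusted p under 0.05 there were 9 genes higher and 2 lower, 11 of the 32, where 29.5% of all tested genes reached that level, 14.2% higher and 15.3% lower. The groups did not overlap in 3 genes that were higher (Kat2a, Kat7 and Sirt3) and 2 that were lower (Hat1 and Yeats4), beside 9.42% and 8.32% of all tested genes, 17.7% together. The 95% interval of the fold change lay within 2-fold in either direction for 30 of the 32 genes, the exceptions being Hdac9 and Hdac11, and within 1.5-fold for 17, so differences of that size are not bounded for the other 15. Without control 2 the test called 9 of the 32 higher (Sirt3, Sirt7, Sirt4, Hdac11, Hdac5, Kat2a, Kat2b, Brd3 and Yeats2) and 1 lower (Hat1), and it then called 29.4% of all tested genes, 15.3% higher and 14.1% lower. Leaving out another library gave 1 call without sorbate 3 and 0 calls otherwise, while the share of all tested genes called fell to 7.31%, 5.16% and 5.99% without control 1, 3 and 4, and to 6.36%, 8.44%, 5.74% and 5.3% without sorbate 1 to 4. Scaling by library size alone moved the median of the 32 to 0.18 and that of all tested genes to 0.11, and called 4 of the 32 (13.9% of all tested genes), DESeq2 3 (18.8%), a fit with no filter on low counts 2 (7.83%), a filter at 1 CPM 1 (13.6%), a fit with 1 surrogate variable 2 (12.1%), sample weights 10 (29.4%) and a threshold of 0.1 called 6 (20.7%).

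**Figure D1:**
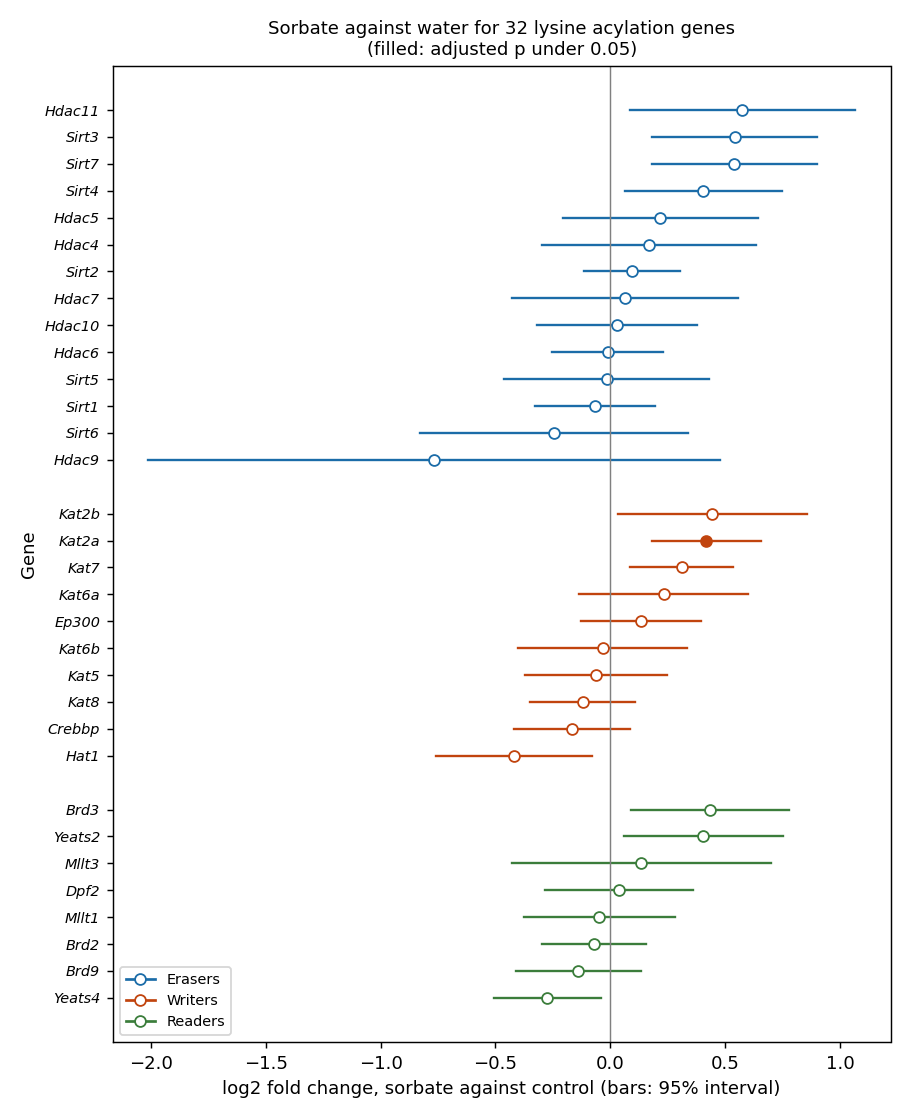
Log2 fold change of sorbate against control for each of the 32 genes, ordered by size within erasers, writers and readers, with 95% intervals as bars and a filled point where the adjusted p was under 0.05. The single filled point is Kat2a at 0.42, and the widest interval is that of Hdac9, from −2.01 to 0.48.

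Among the writers, Kat2a and Kat2b encode the paired catalytic subunits GCN5 and PCAF, which acetylate histone H3 within the SAGA and ATAC coactivator complexes. Kat2a (ENSMUSG00000020918, chromosome 11, 100704746 to 100712465, minus strand, GRCm38) stood at 13.5, 12.5, 13.3 and 11.7 CPM in the controls and at 17.6, 18.2, 15.1 and 17.2 CPM with sorbate. Every sorbate library lay above every control, and control 2 lay among the other controls. Means were 12.8 ± 0.847 and 17.0 ± 1.34 CPM (SD, n = 4 per group), and the rise was 1.34-fold, with a 95% interval of 1.13 to 1.58 (log2 fold change 0.42, SE 0.11, adjusted p = 0.0311 in edgeR's quasi-likelihood test). The call was kept without control 2 (adjusted p = 0.0187) and without sorbate 3, and lost without control 1, 3 or 4 or sorbate 1, 2 or 4, over which the log2 fold change stayed between 0.38 and 0.47 and the adjusted p reached 0.0883. No annotated exon of another gene overlaps those of Kat2a.

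The sequences upstream of Kat2a and Kat7 are shown because these were the writers whose sorbate libraries all lay above the controls, a choice made after their values were seen. Each run is the 250 bases before the annotated start in RefSeq on GRCm38.p6, written 5′ to 3′ along the gene's own minus strand, and the capitals mark TGACG, the core of the cyclic AMP response element, and CCAAT.
Kat2a, chr11:100712468-100712717: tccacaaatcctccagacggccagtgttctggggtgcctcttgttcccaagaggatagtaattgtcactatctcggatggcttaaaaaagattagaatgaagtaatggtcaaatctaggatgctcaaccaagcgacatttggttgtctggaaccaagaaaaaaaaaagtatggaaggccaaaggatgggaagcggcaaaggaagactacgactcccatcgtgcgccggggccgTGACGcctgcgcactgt
Kat7, chr11:95310247-95310496: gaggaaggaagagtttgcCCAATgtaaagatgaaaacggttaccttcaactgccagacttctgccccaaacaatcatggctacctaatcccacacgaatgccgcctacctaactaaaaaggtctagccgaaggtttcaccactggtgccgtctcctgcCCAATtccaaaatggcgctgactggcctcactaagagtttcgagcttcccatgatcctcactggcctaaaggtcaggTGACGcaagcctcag
The TGACG of Kat2a begins 17 bases and that of Kat7 begins 15 bases before the start, and Kat7 has CCAAT at 232 and 92 bases. Searched on both strands, TGACG was found in 13 of the 30 members with a sequence in the table and in 17.8% of 32851 promoter windows of the same length. Of the 30 windows 6 lie wholly within annotated exons and 13 mostly so, and of the 13 windows with TGACG these are 2 and 5. The letters CCAAT were found in 15 of 30 members and in 33.8% of windows. The E-box CACGTG was found in 3 of 30 (Sirt1, Kat5 and Hat1) and in 6.02% of windows, and the D-box letters TTATGTAA or TTATGCAA in 0 of 30 and 1.5% of windows. The members' windows were richer in G and C, with a median of 61.4% beside 52.4% of all windows, and the part of base composition in these shares was not tested. Hdac10 and Kat6a had no sequence in the table.

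Kat2b (ENSMUSG00000000708, chromosome 17, 53566861 to 53672720) stood at 56.2, 95.8, 59.2 and 49.9 CPM in the controls and at 95.5, 79.1, 89.7 and 90.7 CPM with sorbate. Control 2 was above all 4 sorbate libraries, while the other 3 controls were below them. The log2 fold change was 0.44 (SE 0.19, adjusted p = 0.142), and without control 2 it was 0.70 (adjusted p = 8.501e-04). A pseudogene of Kat2b, Kat2b-ps, is annotated, and how reads shared with it were counted is not given in the sources used here.

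Kat7 (HBO1, ENSMUSG00000038909), a MYST-family enzyme that acetylates histone H3 and H4 in complexes with JADE or BRPF proteins, had 19.9, 16.3, 18.7 and 17.2 CPM in the controls and 22.8, 21.9, 21.04 and 23.7 CPM with sorbate. The groups did not overlap, and control 2 was the lowest library. The log2 fold change of 0.31 (SE 0.10) missed the threshold at an adjusted p of 0.0696 in edgeR's quasi-likelihood test, also without control 2 (0.27, adjusted p = 0.0656), and passed it with scaling by library size alone (adjusted p = 0.0201).

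Hat1, the type B enzyme that acetylates newly made histone H4 before it enters chromatin, had lower values with sorbate. It stood at 9.66, 8.83, 11.5 and 11.8 CPM in the controls and at 8.26, 8.80, 7.96 and 6.15 CPM with sorbate. The groups did not overlap, but control 2 at 8.826 CPM lay just above sorbate 2 at 8.802 CPM. For Hat1 the log2 fold change was −0.42 (SE 0.15, adjusted p = 0.0980), and −0.48 without control 2 (adjusted p = 0.0324).

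The remaining 6 writers had log2 fold changes from −0.17 to 0.23 and adjusted p of at least 0.357. Ep300 and Crebbp, the general coactivators p300 and CBP that also place crotonyl groups, stood at 25.8 ± 1.42 and 20.8 ± 2.34 CPM in the controls and at 28.3 ± 4.19 and 18.5 ± 1.55 CPM with sorbate (SD, n = 4). Their 95% intervals ran from −0.13 to 0.39 and from −0.42 to 0.08 on the log2 scale. The other MYST genes were Kat5 (TIP60, −0.06), Kat6a (MOZ, 0.23, and 0.31 without control 2), Kat6b (MORF, −0.03, and 0.11 without it) and Kat8 (MOF, which acetylates histone H4, −0.12). Pseudogenes of Kat6b, Kat6b-ps1 and Kat6b-ps2, are also annotated, and how reads shared with them were counted is likewise not given. Of the exon length of Kat5, 12.1% overlaps exons of Rnaseh2c on the opposite strand, and strand use in counting is not known, so its value is uncertain.

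**Figure D2:**
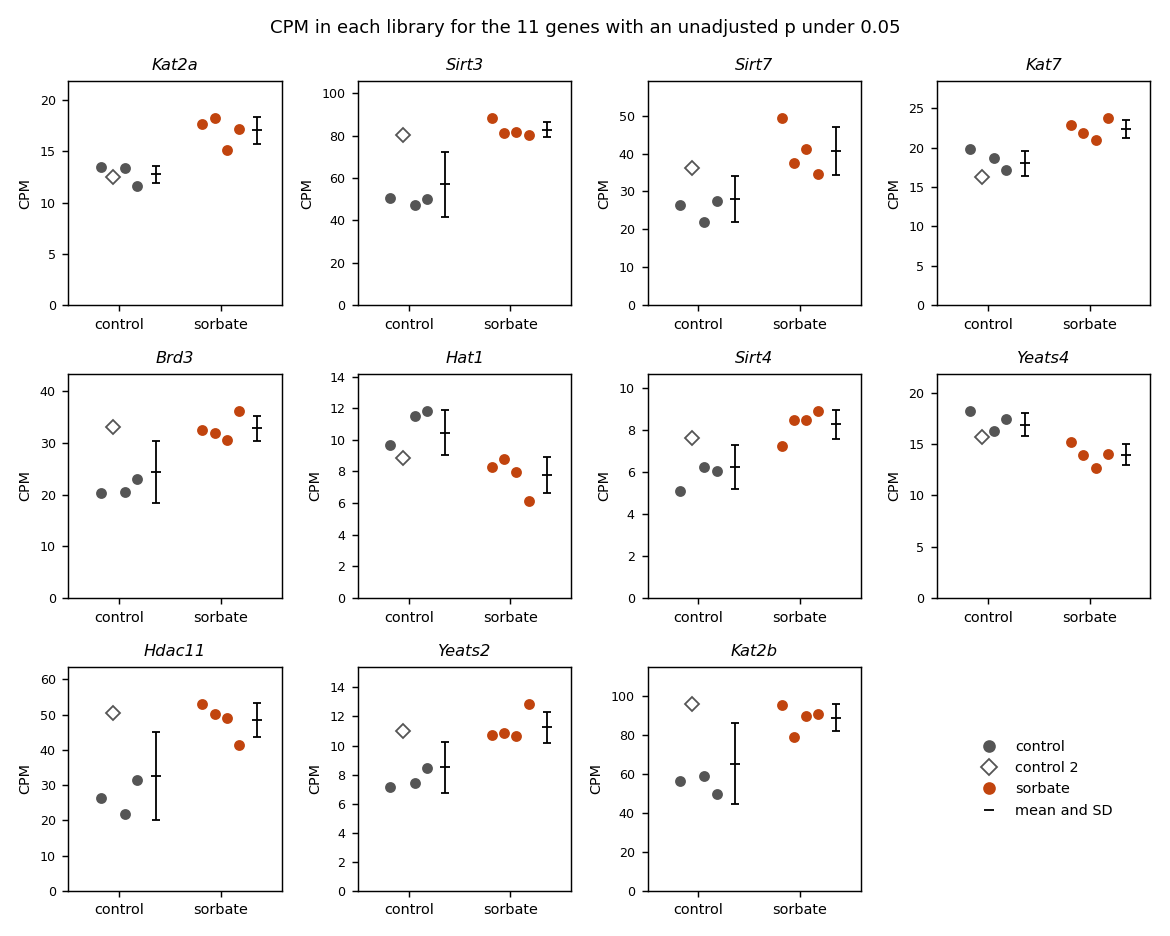
CPM in each library for the 11 genes with an unadjusted p under 0.05, controls left and sorbate right, with mean and SD of 4 libraries beside the points and control 2 drawn as an open diamond. Control 2 is the highest control in 7 of the 11 genes, among them Sirt3 at 80.1 CPM against 47.1 to 50.5 CPM in the other controls.

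Among the erasers, the sirtuins Sirt3 and Sirt7 came closest to the threshold. Sirt3 (ENSMUSG00000025486, chromosome 7, 140863666 to 140882309), the main deacetylase of the mitochondrial matrix, stood at 50.5, 80.1, 47.1 and 50.1 CPM in the controls and at 88.1, 81.2, 81.8 and 80.140 CPM with sorbate. All sorbate libraries were above all controls, although control 2 at 80.051 CPM nearly met the lowest of them. For Sirt3 the log2 fold change was 0.54 (SE 0.16, adjusted p = 0.0542), and 0.76 without control 2 (adjusted p = 2.083e-04). It passed the threshold with DESeq2 (adjusted p = 0.0194) and with library size alone (adjusted p = 0.0372). Exons of Ric8a and Psmd13 on the opposite strand cover 7.0% and 5.7% of its exon length.

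Sirt7 (ENSMUSG00000025138, chromosome 11, 120618372 to 120625240), a nuclear deacetylase enriched in the nucleolus, stood at 26.3, 36.3, 22.0 and 27.5 CPM in the controls and at 49.3, 37.6, 41.1 and 34.6 CPM with sorbate. The groups overlapped through control 2, which exceeded sorbate 4. The log2 fold change was 0.54 (SE 0.16, adjusted p = 0.0543), and 0.70 without control 2 (adjusted p = 0.00315). DESeq2 gave an adjusted p of 0.0226 and scaling by library size alone 0.0319, while the fit with 1 surrogate variable gave 0.0602. Exons of Mafg on the same strand cover 2.4% of the exon length of Sirt7.

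Sirt4, a mitochondrial sirtuin that removes several acyl groups, was low, with 5.08, 7.60, 6.24 and 6.05 CPM in the controls and 7.25, 8.45, 8.46 and 8.88 CPM with sorbate. Control 2 exceeded sorbate 1, and the other 3 controls lay below the sorbate range. Its log2 fold change was 0.40 (SE 0.15, adjusted p = 0.111), and 0.52 without control 2 (adjusted p = 0.0223).

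The other 4 sirtuins had log2 fold changes from −0.24 to 0.09. Sirt1 and Sirt2, the best known nuclear and cytoplasmic deacetylases, stood at 11.4 ± 1.17 and 37.3 ± 1.49 CPM in the controls and at 10.9 ± 0.652 and 39.8 ± 2.97 CPM with sorbate (SD, n = 4), with log2 fold changes of −0.07 and 0.09. Sirt5, which removes succinyl and malonyl groups, had a log2 fold change of −0.02 with an interval of −0.46 to 0.43, and of 0.14 without control 2. Sirt6, a chromatin-bound deacylase, had 2.73 ± 0.580 and 2.28 ± 0.666 CPM and a log2 fold change of −0.24 with an interval of −0.83 to 0.34, which was −0.10 without control 2 and −0.44 without sorbate 1. Adjusted p was at least 0.540 in these 4 genes.

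Hdac11, the only class IV enzyme and an eraser of long fatty acyl groups, had a log2 fold change of 0.57 (SE 0.22), the largest positive one of the 32. It stood at 26.5, 50.6, 21.8 and 31.5 CPM in the controls and at 53.0, 50.3, 49.1 and 41.5 CPM with sorbate. Control 2 lay within the sorbate range, and the other controls lay below it. The adjusted p was 0.115, and without control 2 the log2 fold change was 0.87 (adjusted p = 7.928e-04). An unclassified transcript on the opposite strand, Gm44002, covers 15.4% of its exon length.

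The class IIa genes encode signal-controlled corepressors with weak catalytic activity of their own. Hdac5 stood at 19.6, 32.8, 16.3 and 23.0 CPM in the controls and at 23.1, 27.1, 25.8 and 30.4 CPM with sorbate, and control 2 was the highest of all 8 libraries. Its log2 fold change was 0.22 (SE 0.19, adjusted p = 0.482), and 0.45 without control 2 (adjusted p = 0.0293). Hdac4 and Hdac7 had log2 fold changes of 0.17 and 0.07, and 22.4% of the exon length of Hdac4 overlaps a non-coding gene, Gm26720. Hdac9 had 64 counts over the 4 controls and 42 over the 4 sorbate libraries. Its log2 fold change was −0.77 with an interval of −2.01 to 0.48. It was −1.62 without sorbate 2, the highest sorbate library at 1.11 CPM, and −0.44 without control 2, and neither passed the test (adjusted p of at least 0.0667 in all 8 fits without 1 library). The class IIb genes Hdac6, a cytoplasmic tubulin deacetylase, and Hdac10, a polyamine deacetylase, had log2 fold changes of −0.01 and 0.03, with intervals of −0.25 to 0.23 and −0.32 to 0.38. Without control 2 that of Hdac10 was 0.14.

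Readers of the BET family bind acetylated histones through tandem bromodomains. Brd3 stood at 20.4, 33.1, 20.5 and 23.1 CPM in the controls and at 32.6, 31.96, 30.6 and 36.1 CPM with sorbate. Control 2 lay within the sorbate range and the other controls below it. For Brd3 the log2 fold change was 0.43 (SE 0.16, adjusted p = 0.0914), and 0.63 without control 2 (adjusted p = 0.00109). Brd2, the more abundant of the pair, stood at 75.4 ± 3.22 and 71.8 ± 7.01 CPM (SD, n = 4; log2 fold change −0.07, interval −0.30 to 0.15). Brd9, the bromodomain subunit of the non-canonical BAF remodeller, had a log2 fold change of −0.14 (adjusted p = 0.476).

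The YEATS readers had log2 fold changes of both signs. Yeats2, a subunit of the ATAC complex that also holds Kat2a or Kat2b, had 7.17, 11.005, 7.40 and 8.46 CPM in the controls and 10.7, 10.8, 10.7 and 12.8 CPM with sorbate. Control 2 again lay within the sorbate range, and the other controls below it. For Yeats2 the log2 fold change was 0.40 (SE 0.16, adjusted p = 0.116), and 0.56 without control 2 (adjusted p = 0.00856). Yeats4 (GAS41), a subunit of the TIP60 and SRCAP complexes, had 18.2, 15.6, 16.2 and 17.4 CPM in the controls and 15.2, 13.958, 12.7 and 13.996 CPM with sorbate. The groups did not overlap, with control 2 the lowest control. The log2 fold change of −0.27 (SE 0.11) did not pass the test with control 2 (adjusted p = 0.113) or without it (−0.30, adjusted p = 0.0567). The elongation-complex readers Mllt1 (ENL) and Mllt3 (AF9) had log2 fold changes of −0.05 and 0.14 (−0.10 and 0.36 without control 2), and the double PHD finger gene Dpf2, of the BAF remodeller, one of 0.04.

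**Figure D3:**
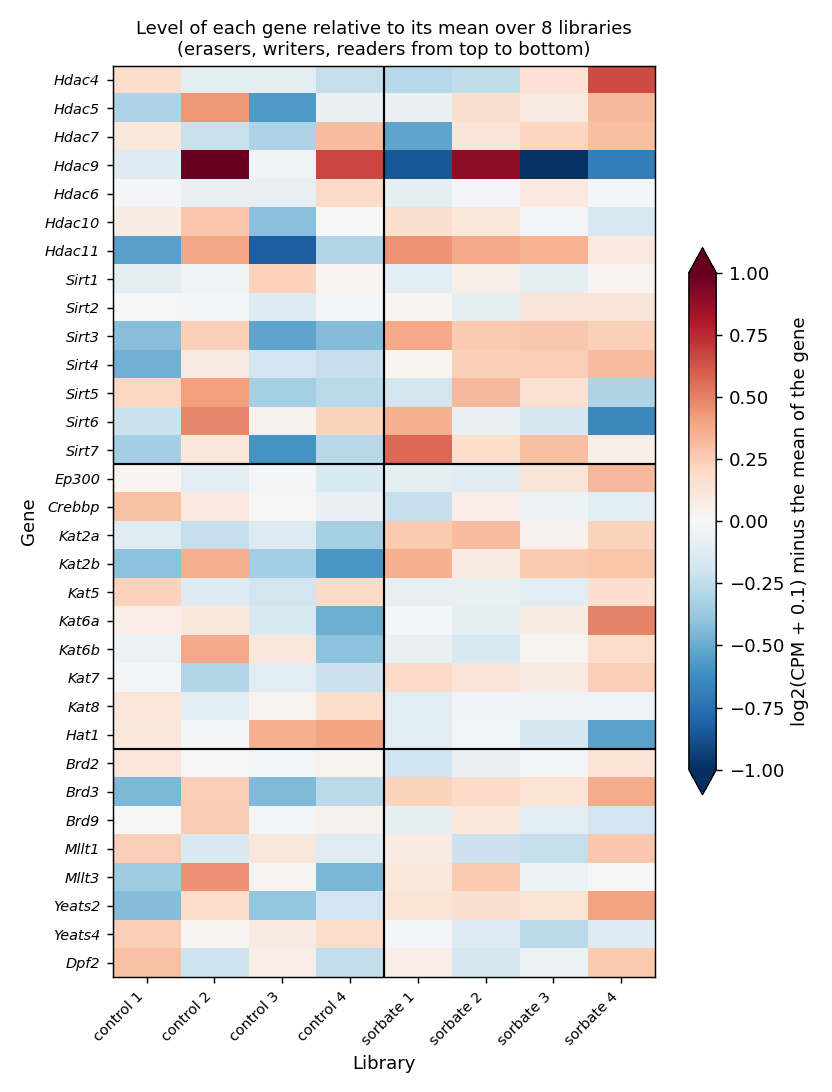
Level of each of the 32 genes in each of the 8 libraries as log2(CPM + 0.1) minus the mean of the gene, with colours clipped at 1 in either direction and lines between groups and between roles. Control 2 differs in colour from the other controls in many erasers and in Kat2b, Brd3 and Yeats2, but not in Kat2a.

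Control 2 lay above the other 3 controls in 16 of the 32 genes, below them in 5 and between them in 11. The higher position was found in 9 of 14 erasers, 3 of 10 writers and 4 of 8 readers, and the lower one in 0, 3 and 2. In 15 genes control 2 fell within the range of the sorbate libraries. Shares of all tested genes in these positions were not computed. These counts therefore do not set the 32 genes, or any role, apart. With control 2 left out, the groups did not overlap in 10 genes that were higher and 3 that were lower. The shares of all tested genes were then 19.1% and 18.6%, 37.7% together. Why this library stands apart was not tested.

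Levels of different genes were compared as CPM per kilobase of merged exon, which sets aside gene length. In the 4 controls the highest were Kat2b at 13.4 ± 4.26, Yeats4 at 11.9 ± 0.805, Brd2 at 9.64 ± 0.412, Sirt3 at 9.53 ± 2.59 and Hdac11 at 8.47 ± 3.28 CPM per kilobase (SD, n = 4). Neighbours in this order differed by less than the larger of their SDs, apart from Yeats4 and Brd2. The order rests on control 2: without it Yeats4 stood first at 12.2, followed by Kat2b at 11.3, Brd2 at 9.72, Sirt3 at 8.24, Sirt2 at 7.36 and Hdac11 at 6.91 CPM per kilobase, a setting added after the data were seen. With all 4 controls Sirt2 came next at 7.40 ± 0.295, followed by Sirt7 at 5.44 ± 1.16 and Kat8 at 5.31 ± 0.445 CPM per kilobase. Kat2a stood at 3.66 ± 0.243 and rose to 4.90 ± 0.385 CPM per kilobase. The lowest were Hdac4 at 0.509 ± 0.0634, Mllt3 at 0.173 ± 0.0545 and Hdac9 at 0.0563 ± 0.0270 CPM per kilobase. Sirt3 and Sirt7 stood at 13.9 ± 0.604 and 7.90 ± 1.23 CPM per kilobase with sorbate. With the longest transcript in place of merged exons Sirt3 was highest in the controls at 17.8 CPM per kilobase and Sirt2 next at 17.6. Without control 2 Sirt2 was first at 17.5, Brd2 next at 16.3 and Sirt3 then at 15.4, so the order depends on the length used and on this library.

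**Figure D4:**
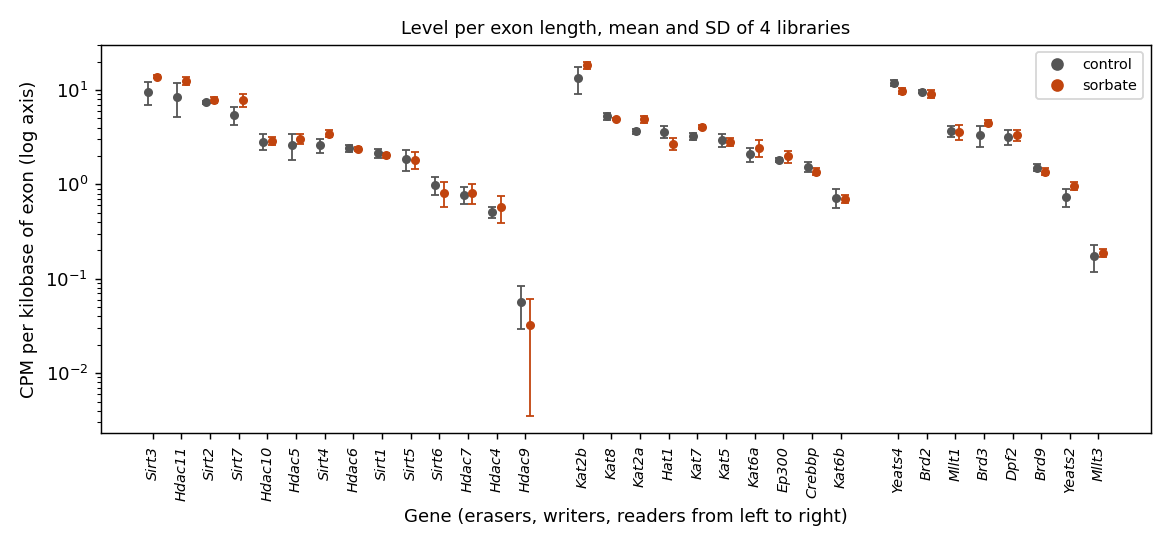
CPM per kilobase of merged exon on a log axis for each gene, mean and SD of 4 libraries, controls in grey and sorbate in orange. Kat2b is the highest writer at 13.4 CPM per kilobase in the 4 controls (11.3 without control 2) and Hdac9 the lowest gene at 0.0563.

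Close relatives were also compared within each library, as the log2 ratio of their counts, which does not depend on how libraries are scaled. Of 7 pairs, 0 had groups that did not overlap, by the exact permutation test (two-sided, smallest possible p = 0.0286). Adjusted over the 7 pairs, a single pair could not have passed the threshold even without overlap, so a miss says nothing about the ratios. The ratio Brd2 to Brd3 was 1.97, 1.15, 1.83 and 1.70 in the controls and 0.98, 1.12, 1.25 and 1.16 with sorbate. Control 2 lay within the sorbate range and the other controls above it, and the difference was −0.54 (exact permutation p = 0.0857, adjusted p = 0.267). The ratio Ep300 to Crebbp was 0.18, 0.26, 0.45 and 0.37 in the controls and 0.60, 0.28, 0.65 and 0.89 with sorbate. Sorbate 2 lay among the controls and the other sorbate libraries above them (difference 0.29, exact permutation p = 0.0857, adjusted p = 0.267). For Kat2a to Kat2b the difference was −0.07 (exact permutation p = 0.886), with −2.93 in control 2 and −2.15 to −2.06 in the other controls. The differences for Kat6a to Kat6b, Hdac4 to Hdac5, Hdac6 to Hdac10 and Mllt1 to Mllt3 were 0.24, −0.13, −0.05 and −0.22.

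Partners, cofactors and regulators of these proteins were taken from 11 lists of 201 genes in all, of which 190 were tested. Of these, 20 were higher and 9 lower with sorbate, beside 6.14% and 6.3% of all tested genes, with a median log2 fold change of 0.09 beside −0.02. Without control 2 the counts were 38 and 20, where 15.3% and 14.1% of all tested genes were called. All 29 were also called without control 2, but only 8 in each of the 8 fits that left out 1 library: Nampt, Nmrk1, Naa60, Acot12 and Atxn7l3 among the higher, and Camk1d, Clock and Bcl7c among the lower. Each of the other 21 was lost in at least 1 of the fits without 1 of the other 7 libraries. The counts of each list below likewise stand beside 6.14% higher and 6.3% lower of all tested genes, and their median of −0.02. No list was tested as a set.

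The partner genes with the lowest p belonged to NAD supply, which feeds the sirtuins. Nampt, the rate-limiting enzyme of NAD salvage from nicotinamide, stood at 32.2, 38.6, 46.1 and 38.6 CPM in the controls and at 90.6, 78.6, 106.6 and 96.8 CPM with sorbate. All sorbate libraries were well above all controls, control 2 included, and Nampt rose by 1.26 on the log2 scale (SE 0.14, adjusted p = 8.454e-04). Nmrk1, which makes nicotinamide mononucleotide from the riboside, stood at 11.1, 19.2, 13.7 and 10.9 CPM in the controls and at 36.3, 41.9, 53.8 and 54.9 CPM with sorbate, a rise of 1.77 (SE 0.20, adjusted p = 0.00115). Control 2 was the highest control but far below the sorbate libraries. Of the 15 tested genes of the list 2 rose and 2 fell, with a median of 0.25. Those that fell were the NAD-consuming genes Parp2 (−0.57, SE 0.15) and Cd38 (−0.99, SE 0.28), both lost in 7 of the 8 fits without 1 library and kept without control 2. Cd38 is expressed by immune cells. Of their tested markers, 5 of 10 Kupffer cell and macrophage, 2 of 2 neutrophil, 1 of 2 B cell and 0 of 1 T and NK cell were lower. The part of these cells in the value of Cd38 was not tested.

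Acetyl-CoA is the donor of the writers. Of 13 tested genes of acetyl-CoA and acyl-CoA supply 3 rose and 2 fell, with a median of −0.05. Acot12, a cytosolic acetyl-CoA hydrolase, had 63.0, 114.1, 73.2 and 57.7 CPM in the controls and 153.5, 144.8, 150.6 and 162.0 CPM with sorbate. The groups did not overlap, with control 2 the highest control, and the rise was 0.99 on the log2 scale (SE 0.19, adjusted p = 0.0105). Acly, which makes cytosolic acetyl-CoA from citrate, had 387.6, 257.2, 307.8 and 135.1 CPM in the controls and 103.0, 127.4, 132.5 and 138.4 CPM with sorbate. Control 4 lay within the sorbate range, and the fall was −1.12 (SE 0.26, adjusted p = 0.0219), lost in 6 of the 8 fits without 1 library and kept without control 2 or control 4. The citrate carrier Slc25a1 fell by 0.44 (SE 0.13) and the malonyl-CoA decarboxylase Mlycd rose by 0.35 (SE 0.09), both lost in 7 of the 8 fits and kept without control 2.

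In the SAGA and ATAC list, which holds the partners of Kat2a and Kat2b, 2 of 21 tested genes rose and 0 fell, with a median of 0.12. Atxn7l3 and Atxn7, of the deubiquitinase module of SAGA, rose by 0.49 each (SE 0.10 and 0.13, adjusted p = 0.0114 and 0.0329). Atxn7l3 stood at 23.7, 23.9, 20.2 and 21.8 CPM in the controls and at 33.7, 30.4, 30.6 and 30.7 CPM with sorbate, without overlap and with control 2 near control 1. The call of Atxn7 was kept only without control 2 or sorbate 2. In the list of MSL, NSL, HBO1 and MOZ partners 3 of 18 rose and 0 fell, with a median of 0.09. These were Kansl2 (0.46, SE 0.10) and Kansl3 (0.63, SE 0.15), which are subunits of the NSL complex of Kat8, and Jade1 (0.75, SE 0.18), which directs Kat7 to histone H4. Kansl2 was lost in 4 of the 8 fits without 1 library, and Kansl3 and Jade1 in 6 of the 8. Of 16 TIP60 partners 0 rose and 1 fell, Morf4l2, a relative of the TIP60 subunit gene Morf4l1 (−0.70, SE 0.15), lost without control 3 or sorbate 3.

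Among the other bromodomain genes 4 of 24 rose and 0 fell, with a median of 0.13. These were the remodeller ATPase Smarca2 (0.85, SE 0.19), the nucleolar remodeller subunit Baz2a (0.66, SE 0.16) and the corepressors Trim24 (0.41, SE 0.12) and Trim28 (0.36, SE 0.10), and each was lost in at least 5 of the 8 fits without 1 library. Of 20 BAF genes 2 rose, Arid2 (0.49, SE 0.11) and Smarcd2 (0.41, SE 0.10), and 1 fell, Bcl7c (−0.79, SE 0.15, adjusted p = 0.0103). In the elongation and Dot1l list Aff1, a scaffold of the super elongation complex that binds Mllt1 and Mllt3, rose by 0.51 (SE 0.14), and Leo1, of the PAF1 complex, fell by 0.72 (SE 0.15), with 14 of 16 tested genes not called. Arid2, Smarcd2, Aff1 and Leo1 were each lost in 2 to 6 of the 8 fits.

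Among 26 tested kinases and partners of the class IIa HDACs 2 rose and 1 fell, with a median of 0.04. Camk1d, a calcium-dependent kinase, fell without overlap from 84.6 ± 25.8 to 33.6 ± 7.21 CPM (SD, n = 4; log2 fold change −1.33, SE 0.23, adjusted p = 0.00677). Sik1, a kinase induced by cyclic AMP, had 12.2, 9.33, 17.1 and 12.2 CPM in the controls and 11.4, 54.9, 30.1 and 54.8 CPM with sorbate. Sorbate 1 lay among the controls, and the rise of 1.57 (SE 0.41, adjusted p = 0.0328) was lost in 6 of the 8 fits, being kept without control 2 or sorbate 1. Prkaa2, which encodes 1 of the subunits of the AMP-activated kinase, rose by 0.74 (SE 0.17), lost in 5 of the 8. Among 22 other acyltransferases Naa60, an N-terminal acetyltransferase of the Golgi, rose without overlap from 49.8 ± 5.61 to 89.8 ± 6.11 CPM, by 0.85 on the log2 scale (SE 0.11, adjusted p = 0.00199). Clock, a circadian transcription factor with reported acetyltransferase activity, fell without overlap from 57.2 ± 10.5 to 34.5 ± 3.25 CPM, by −0.73 on the log2 scale (SE 0.14, adjusted p = 0.00936). None of the 4 class I HDAC genes was called, with a median of −0.08. Of them 2 had an unadjusted p under 0.05, where 29.5% of all tested genes reached that level. These were Hdac3, with 26.0 ± 3.48 and 32.1 ± 1.37 CPM, and Hdac1, with 22.4 ± 1.89 and 19.1 ± 0.570 CPM. The groups did not overlap in either, beside 17.7% of all tested genes.

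**Figure D5:**
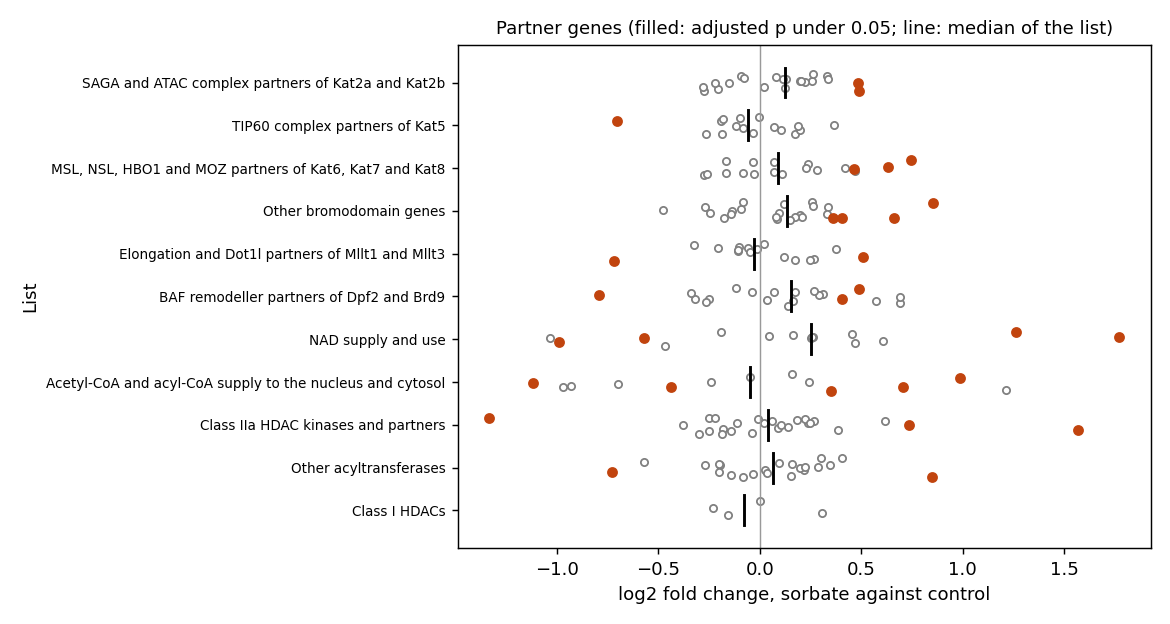
Log2 fold change of each tested gene of the 11 partner lists, filled where the adjusted p was under 0.05, with the median of each list as a vertical line. The largest rise is Nmrk1 at 1.77 and the largest fall Camk1d at −1.33, and list medians lie between −0.08 and 0.25.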

How the data were processed

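Liver was snap-frozen and poly(A) RNA was made into TruSeq libraries, sequenced as single reads, per the labels' protocols. The authors deposited raw counts, whole numbers of reads per gene. The submitters' processing notes name FastQC, HISAT2 2.1.0, Subread and edgeR, and GRCm38 as genome build. How reads were counted, with which annotation and whether by strand, is not given in the sources used here. Groups follow the treatment in the labels. Replicates are numbered in accession order, which gives no pairing, and no batch is named. That libraries come from separate animals is nowhere stated, so p-values measure the spread between libraries, which may be technical. Within groups, all pairs of libraries differed far beyond sampling noise (chi-square per gene 22.9 to 218). Control 2 differed from the other controls by 137 to 218 and from the sorbate libraries by 53.3 to 81 on this measure. Another 4 per-sample columns had no matching sample and entered no step.

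Genes were filtered with filterByExpr (count minimum 10), scaled by TMM factors and compared, two-sided, by edgeR's quasi-likelihood test (version 4.0.16, in R 4.3.3), adjusting by Benjamini-Hochberg over all 13312 genes tested, at a threshold of 0.05. Standard errors were derived from the F statistic. The test was checked on simulated counts in which no library stood apart, so the check does not cover a library such as control 2. Ratios of relatives added 0.5 to each count. Coordinates and exon lengths come from GENCODE vM21 on GRCm38. Alternatives were library size alone, DESeq2 1.42.0, no filter, at least 1 CPM in 4 libraries, leaving out each library, 1 surrogate variable (sva 3.50.0), sample weights (limma 3.58.1) and a threshold of 0.1. The members, lists and tests were chosen with earlier results of these data known. Values in every library are given for called members, the next 10 by p and those that an alternative calls. From each partner list up to 4 called genes with the lowest p are named, or at most 2 where none was called.

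The 9 lists of cell type markers gave these numbers of called genes: 1 of 10 hepatocyte markers higher, and lower 5 of 10 Kupffer cell and macrophage, 1 of 10 sinusoidal endothelial, 0 of 10 stellate, 2 of 6 cholangiocyte, 0 of 1 T and NK cell, 1 of 2 B cell, 2 of 2 neutrophil and 5 of 6 red cell markers.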

Additional observations from a re-analysis of the deposited data

Results flagged for a closer look

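In 78 groups of 4 values, 1 for each gene and group and for each ratio of relatives and group, 8 had a library set apart from the other 3 by a gap that took up most of the range of the group (Dixon's test at 95%). Chance alone sets apart about 1 in 20 such groups. Sirt3 in control 2 stood at 80.1 CPM, beside 47.1 to 50.5 CPM in the other controls, and the ratio of Kat2a to Kat2b in control 2 at −2.93 on the log2 scale, beside −2.15 to −2.06. Sirt2 in control 3 stood at 35.1 CPM, beside 37.8 to 38.3 CPM. In sorbate 4, Kat5 stood at 11.4 CPM beside 9.33 to 9.60 CPM, Yeats2 at 12.8 CPM beside 10.7 to 10.8 CPM, and the ratio of Kat6a to Kat6b at 1.10 beside 0.83 to 0.85. Kat8 in sorbate 1 stood at 13.6 CPM, beside 14.2999 to 14.3176 CPM in the other sorbate libraries. Hdac9 in sorbate 2 stood at 1.11 CPM, beside 0.229 to 0.304 CPM, on at most 25 counts in any library.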

How the results depend on the processing

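Both calls and directions moved with the setting. Of the values of the 32 genes over the alternatives, 31 gained a call, 7 lost it, 32 changed sign and 409 did neither. Of the differences in ratio 7 changed sign. Of the values of the 29 called partner genes 127 lost the call and 308 kept it. With library size alone 1300 genes were higher and 550 lower, against 818 and 838, and the median of all genes moved from −0.02 to 0.11 on the log2 scale. Sample weights gave 1968 and 1944, the threshold of 0.1 gave 1337 and 1414, and leaving out 1 library gave 331 to 2036 and 343 to 1873. Of the 32 genes, 4 were called higher with library size alone (Kat2a, Kat7, Sirt3 and Sirt7), 3 with DESeq2 (Kat2a, Sirt3 and Sirt7), 2 with no filter (Sirt3 and Sirt7, Kat2a at adjusted p = 0.0538), 2 with the surrogate variable (Kat2a and Sirt3), 9 with sample weights, 5 at the threshold of 0.1 and 0 to 9 without 1 library. Called lower were 1 with sample weights, 1 at the threshold of 0.1 and 0 to 1 without 1 library. Partner genes called higher were 31 with library size alone, 41 with weights, 32 at the threshold of 0.1 and 5 to 38 without 1 library, and called lower 15 with DESeq2, 19 with weights, 15 at the threshold of 0.1 and 3 to 20 without 1 library. The cause of these shifts was not tested. The reversals of sign were all in values that were not called. With library size alone they were Hdac6 0.12, Sirt1 0.059, Sirt5 0.10, Kat5 0.065, Kat6b 0.082, Kat8 0.0078, Brd2 0.053 and Mllt1 0.077, and with weights Hdac6 0.0020, Sirt5 0.14 and Kat6b 0.0081. Without 1 library the ranges that crossed 0 were −0.060 to 0.28 for Hdac4, −0.024 to 0.23 for Hdac7, −0.045 to 0.059 for Hdac6, −0.089 to 0.14 for Hdac10, −0.11 to 0.0062 for Sirt1, −0.13 to 0.14 for Sirt5, −0.13 to 0.0074 for Kat5, −0.15 to 0.11 for Kat6b, −0.15 to 0.032 for Mllt1 and −0.045 to 0.15 for Dpf2. The differences in ratio ran from −0.28 to 0.013 for Kat2a to Kat2b, −0.33 to 0.012 for Hdac4 to Hdac5 and −0.17 to 0.056 for Hdac6 to Hdac10. The level per kilobase of 26 of the 32 genes moved by over 1 SD with the longest transcript. No paired analysis was made. The last digits of the sample titles recur in both groups, but nothing in the labels says that they mark pairs. At these depths 28 of the 32 genes had at least 100 counts in every library, and the values of Hdac9, Sirt6, Mllt3 and Hdac7 rest on fewer.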
